A study of Mus musculus with 14 samples.

Results

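Granins and the enzymes that mature prohormones were followed by bulk RNA-seq in the colon of *MiR-29ab1-/-* mice and their WT controls. The set held 10 genes, of 55889 in the table without DSS and 54721 in the table after DSS. It comprised the granins and granin-like proteins *Chga*, *Chgb*, *Scg2*, *Scg3*, *Scg5* and *Vgf*, the convertases *Pcsk1* and *Pcsk2*, the convertase inhibitor *Pcsk1n* and the carboxypeptidase *Cpe*. The genes were taken by name as secretory granule genes of enteroendocrine cells, and the set was chosen by the levels of *Chga* and *Chgb*, which were lower in *MiR-29ab1-/-* colon without DSS. Values of that contrast are therefore given as a description, with no test, and for these 10 genes the genotype contrast was tested only in the other mice, which had received DSS.

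There were 4 WT and 4 *MiR-29ab1-/-* mice without DSS, and 3 WT and 3 *MiR-29ab1-/-* mice after 3 days of drinking water with 3.5% dextran sulfate sodium (DSS), which damages the colonic epithelium. All mice were on the C57BL/6N background according to the labels, aged 8 to 12 weeks in the study, and the knockout was a germline deletion of the gene pair for miR-29a and miR-29b-1, so that every cell type of the colon lacked it. The labels give small intestinal crypts as the source, whereas the study describes colon. Genes that mark the colon had a median of 167 CPM (read counts scaled to the size of each library) without DSS and 213 CPM after DSS, against 0.832 and 0.415 CPM for genes that mark the small intestine. Libraries held 14231157 to 18185020 counts without DSS and 20076719 to 23153149 after DSS. As a check of the genotype labels, *Lncpint*, the long noncoding RNA beside the deleted genes, had 7 to 23 reads in WT and 1386 to 2889 in *MiR-29ab1-/-* mice without DSS, and 6 to 14 against 706 to 1144 after DSS. The mature miRNAs were not measured in these libraries.

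Enteroendocrine cells are rare hormone-secreting cells scattered through the gut epithelium. They pack peptide hormones into dense-core granules, in which granins condense the cargo, the convertases encoded by *Pcsk1* and *Pcsk2* cut prohormones at paired basic residues, and carboxypeptidase E trims the basic residues that remain. *Chga* and *Chgb* encode chromogranins A and B, the most widely used markers of such cells. Neurons of the gut wall carry granules of the same kind, so that both cell types can contribute to these transcripts in bulk tissue.

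The deleted genes give rise to miR-29a-3p and miR-29b-3p, and miR-29b-3p is also made from a second locus on chromosome 1, together with miR-29c-3p, which was not deleted. The mature sequences from RefSeq (GRCm38.p6) are printed because the seed, bases 2 to 8 in capitals, is what a target site pairs with, and all 3 miRNAs share it.
miR-29a-3p: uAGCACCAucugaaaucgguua
miR-29b-3p: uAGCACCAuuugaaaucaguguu
miR-29c-3p: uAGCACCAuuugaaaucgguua
The positions were chr6:31062673-31062694 (minus strand) for miR-29a-3p and chr6:31063025-31063047 (minus strand) for the deleted copy of miR-29b-3p. The annotated 3′ UTRs of the 10 genes, whose longest form ran from 250 bases in *Chgb* to 2542 bases in *Pcsk1*, were searched on the transcript strand for TGGTGCT, the complement of the seed, or GGTGCTA, the overlapping match to the first bases with a terminal A. Neither was present in any of the 10 genes, whereas 19.6% of 13189 tested protein-coding genes with an annotated 3′ UTR held at least 1 of them. These letters are thus not in these annotated windows, and sites of other kinds were not searched.

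Promoters were also searched for a known motif, and its part in the levels given below was not tested. RefSeq windows from 250 bases before to 50 bases after the transcription start were at hand for 8 of the 10 genes, all but *Cpe* and *Vgf*. The cyclic AMP response element TGACGTCA, a palindrome that reads the same on both strands, was present in 3 of them, *Chgb*, *Scg2* and *Pcsk1*, and in 2.03% of 27025 genes with such a window. Allowing any base at its seventh position (TGACGTNA, either strand, which includes the full motif) added *Chga*, for 4 of 8 genes against 3.36% of all genes and 5.42% of the 11129 genes tested in the RNA-seq. The 4 stretches, each 30 bases on the strand of the gene with the motif in capitals, are given to show how alike they are.
Chga, chr12:102554886-102554915 (plus): gggcggtcctaTGACGTAAtttcctgggtg
Chgb, chr2:132781559-132781588 (plus): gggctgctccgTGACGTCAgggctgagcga
Scg2, chr1:79440076-79440105 (minus): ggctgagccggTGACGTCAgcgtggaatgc
Pcsk1, chr13:75089768-75089797 (plus): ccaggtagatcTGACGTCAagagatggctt
The motif began 44 bases before the RefSeq start in *Chga*, 72 in *Chgb*, 68 in *Scg2* and 78 in *Pcsk1*. The deposited gene positions start earlier for *Chgb* (chr2:132781278) and *Scg2* (chr1:79440120, minus strand), and by them the stretches of both genes lie after the start. A match of letters is a description, and binding was not measured. The windows of *Pcsk1n*, *Scg3*, *Scg5* and *Pcsk2* held neither form. Whether the motif goes with the genotype difference was not tested.

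The chromogranins were by far the most abundant of the set. Compared per kilobase of gene length, the mean level in WT colon without DSS was 39.3 ± 8.40 CPM per kb for *Chgb* (SD, n = 4) and 24.6 ± 4.12 for *Chga*, followed by *Pcsk1* at 6.66 ± 1.64, *Cpe* at 3.17 ± 0.332 and *Pcsk1n*, which encodes the inhibitor proSAAS, at 2.33 ± 0.408. The remaining genes were faint. *Scg5*, encoding the chaperone 7B2 of the convertase PC2, reached 0.837 ± 0.360 CPM per kb, *Scg2* 0.372 ± 0.288, *Scg3* 0.330 ± 0.103 and *Vgf* 0.0990 ± 0.0302. *Pcsk2*, the gene for PC2 itself, had 0 reads in all 8 mice without DSS and 1 read in 1 of the 6 mice after DSS. With 0 reads, up to 3 reads remain possible, a limit of 0.165 to 0.215 CPM per mouse without DSS that covers counting error only. The order was the same in *MiR-29ab1-/-* mice without DSS and in WT mice after DSS, and in *MiR-29ab1-/-* mice after DSS *Cpe* stood above *Pcsk1*. Ranges of the mice did not overlap from *Chgb* down to *Scg5* in either genotype without DSS, whereas *Scg5*, *Scg2* and *Scg3* overlapped their neighbours in that order. *Pcsk1* and *Cpe*, and *Cpe* and *Pcsk1n*, overlapped in WT mice after DSS, as did *Pcsk1n* and *Scg5* in *MiR-29ab1-/-* mice after DSS. *Chga* and *Chgb* together made up 82.1% ± 1.28 of the summed level per kb in WT and 77.1% ± 0.388 in *MiR-29ab1-/-* mice without DSS (n = 4 each), and 81.1% ± 1.42 and 79.0% ± 2.15 after DSS (n = 3 each).

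**Figure D1:**
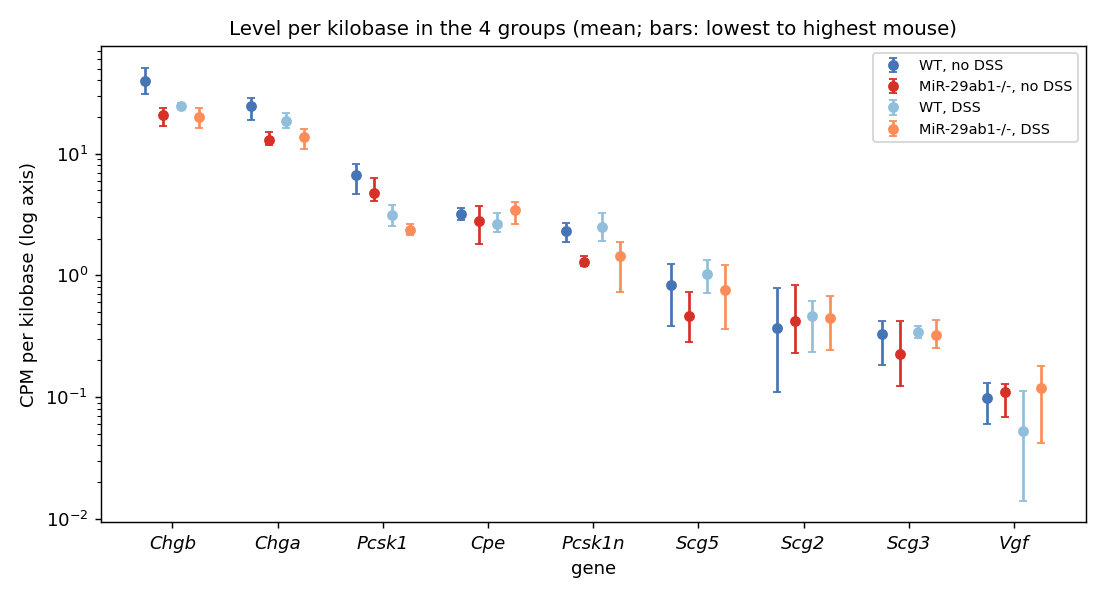
Level of 9 of the 10 genes in CPM per kilobase of gene length (log axis) in the 4 groups; points are group means and bars run from the lowest to the highest mouse, and *Pcsk2*, at 0 or 1 read, is not drawn. *Chgb* and *Chga* lie above all others in each group, from 12.9 to 39.3 CPM per kb, and *Vgf* lies lowest, at 0.0529 to 0.120.

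Without DSS, the abundant granins and *Pcsk1n* were lower in every *MiR-29ab1-/-* mouse than in any WT mouse. *Chga* was at 78.5, 52.1, 67.7 and 72.8 CPM in WT mice 1 to 4 and at 41.2, 32.6, 34.0 and 35.0 CPM in *MiR-29ab1-/-* mice 1 to 4, from 873 to 1425 and 488 to 609 reads. The log2 fold change of *MiR-29ab1-/-* against WT was -0.93 (SE 0.13), a mean 47.3% lower. *Chgb* was at 140, 84.9, 104 and 103 CPM in WT and at 54.6, 63.9, 64.7 and 46.4 CPM in the knockout, and the log2 fold change was -0.91 (SE 0.16). The genotypes were well apart for both chromogranins, and WT mouse 2 was the lowest of its group for both. *Pcsk1n* was at 5.84, 4.12, 4.61 and 5.91 CPM in WT and at 2.77, 3.17, 2.60 and 2.72 CPM in *MiR-29ab1-/-* mice (log2 fold change -0.86, SE 0.21). These 3 genes were the members that did not overlap between genotypes in the lower direction, and 0.92% of all 15441 genes tested behaved so. Since this contrast brought the genes into the set, nothing is read from that count. In bulk tissue, fewer enteroendocrine cells and less RNA per cell cannot be told apart.

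The processing enzymes were less uniform. *Pcsk1*, encoding the convertase PC1/3 that matures hormones such as glucagon-like peptides, was at 43.3, 26.2, 46.2 and 33.65 CPM in WT and at 24.5, 23.4, 35.1 and 23.0 CPM in *MiR-29ab1-/-* mice (log2 fold change -0.49, SE 0.20). The genotypes overlapped, as *MiR-29ab1-/-* mouse 3 lay above WT mice 2 and 4. *Cpe* was at 9.36, 8.59, 7.71 and 7.47 CPM in WT and at 9.13, 9.74, 5.84 and 4.73 CPM in *MiR-29ab1-/-* mice, with a log2 fold change of -0.17 (SE 0.24). Here *MiR-29ab1-/-* mice 1 and 2 were within or above the WT range and mice 3 and 4 were below it.

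Among the faint granins, reads per mouse ranged from 5 to 35. *Scg5* averaged 1.31 ± 0.565 CPM in WT and 0.723 ± 0.327 CPM in *MiR-29ab1-/-* mice (log2 fold change -0.87, SE 0.45), and *Scg3*, encoding secretogranin III, which anchors chromogranin A to the granule membrane, averaged 0.904 ± 0.282 and 0.621 ± 0.364 CPM (-0.55, SE 0.45). *Scg2*, the precursor of secretoneurin, averaged 0.936 ± 0.724 and 1.05 ± 0.710 CPM (0.18, SE 0.59). Each of these overlapped between genotypes, with standard errors close to or above the size of the differences for *Scg3* and *Scg2*. *Vgf*, with 3 to 7 reads per mouse, was too low to be tested. Of the 8 genes that passed the filter on low counts, 7 had a negative log2 fold change, beside 50.5% of all genes tested, and their median was -0.70 beside -0.0016 over all genes.

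**Figure D2:**
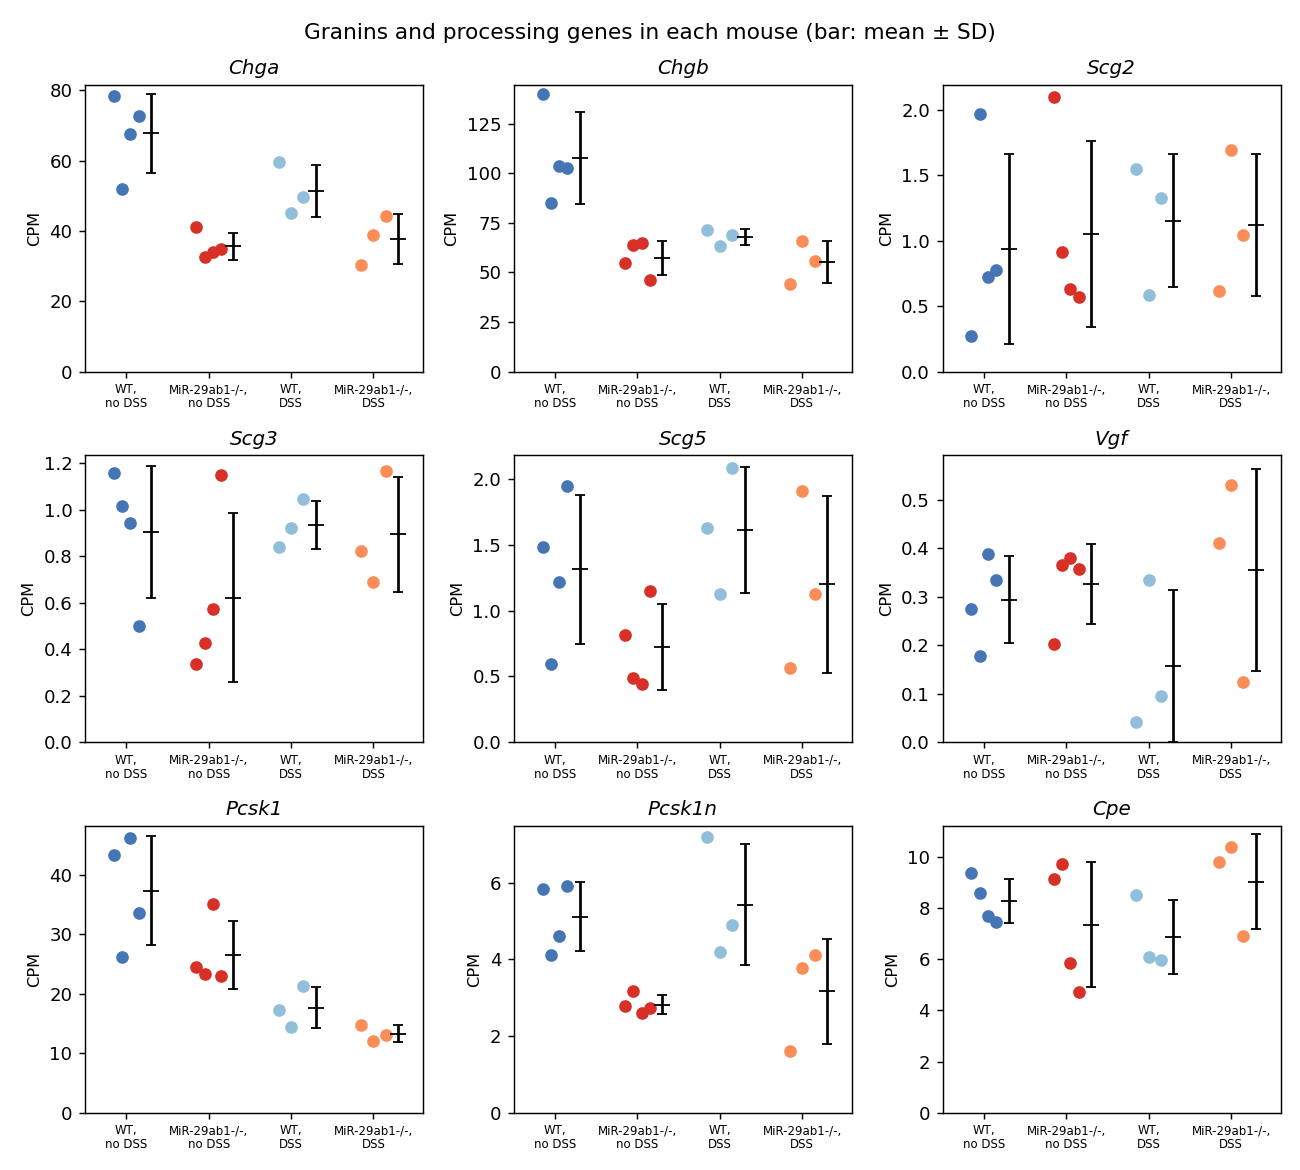
CPM of 9 genes in each mouse; each point is 1 mouse, horizontal marks and bars are the mean and SD of a group (n = 4 without DSS, n = 3 after DSS), and each panel has its own linear axis from 0. *Chga* and *Pcsk1n* show no overlap between genotypes in either experiment, *Chgb* shows none without DSS, and *Scg2* overlaps in both.

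After DSS, the genotype difference was tested in mice other than those whose *Chga* and *Chgb* levels chose the set. The genes were nonetheless chosen with earlier results of these data known. *Chga* and *Pcsk1* were lower in *MiR-29ab1-/-* mice at the study's threshold, an unadjusted p under 0.05 by edgeR's quasi-likelihood test. These were 2 of 8 tested genes, beside 3.25% of all 14908 genes tested that were lower and 7.23% that changed in either direction at that threshold. No gene of the set was called higher, beside 3.98% of all genes. After Benjamini-Hochberg adjustment over all genes, edgeR called 0 of the 8, beside 0.0134% of all genes, with adjusted p from 0.646 to 0.991. DESeq2 also called 0 after adjustment, and 3 before it, where it called 7.92% of all genes. Single genes were also compared by a two-sided exact permutation test of log2 CPM, whose smallest possible p with 3 mice against 3 is 0.1, so that it cannot pass the threshold. It gave that value for *Chga* and *Pcsk1n*, 0.2 for *Chgb*, *Pcsk1* and *Cpe*, and 0.4 to 1 for the rest. Again 7 of the 8 log2 fold changes were negative, beside 51% of all genes tested, with a median of -0.35 beside -0.0051 over all genes. Other lists also lay to 1 side after DSS, with all 7 goblet cell markers negative, as given with the markers of other cells below. Whether the difference was smaller after DSS than without it was not tested, because such a test would hold the contrast that chose the genes.

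*Chga* after DSS was at 59.6, 45.0 and 49.5 CPM in WT and at 30.3, 38.8 and 44.2 CPM in *MiR-29ab1-/-* mice. All WT mice were above all *MiR-29ab1-/-* mice, although the lowest WT mouse and the highest *MiR-29ab1-/-* mouse were close. The log2 fold change was -0.44 (SE 0.16, 95% interval -0.80 to -0.086, edgeR unadjusted p 0.0205, adjusted p = 0.646), a mean 26.5% lower. The unadjusted p was 0.0779 without WT mouse 1 and 0.0699 without *MiR-29ab1-/-* mouse 1, so that either mouse decided the call. *Chgb* was at 71.2, 63.4 and 68.7 CPM in WT and at 44.2, 65.6 and 55.6 CPM in *MiR-29ab1-/-* mice, with *MiR-29ab1-/-* mouse 2 above WT mouse 2. This overlap depended on the scaling (TMM), whose factor was 0.865 in that knockout mouse and 0.969 to 1.07 in the other mice after DSS. By total counts it lay below WT mouse 2, with 1237 reads of 21834538 against 1515 of 22278350. The log2 fold change of *Chgb*, -0.30 (SE 0.14, 95% interval -0.61 to 0.018), did not pass the threshold (edgeR unadjusted p 0.0616, adjusted p = 0.668), and it passed without *MiR-29ab1-/-* mouse 2 (unadjusted p 0.00992). Without *MiR-29ab1-/-* mouse 1, the log2 fold change of *Chgb* was -0.16 (unadjusted p 0.214).

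*Pcsk1* after DSS was at 17.3, 14.4 and 21.3 CPM in WT and at 14.8, 12.04 and 13.0 CPM in *MiR-29ab1-/-* mice, with 1 pair of mice crossing. This crossing also depended on the scaling. By total counts *MiR-29ab1-/-* mouse 1, with 287 reads of 20076719, lay below WT mouse 2, with 343 of 22278350. The log2 fold change of *Pcsk1* was -0.41 (SE 0.17, 95% interval -0.79 to -0.029, edgeR unadjusted p 0.0378, adjusted p = 0.657). The call was lost when WT mouse 1 (log2 fold change -0.42, unadjusted p 0.0627), WT mouse 3 (-0.25, 0.174), *MiR-29ab1-/-* mouse 2 (-0.34, 0.112) or *MiR-29ab1-/-* mouse 3 (-0.40, 0.0795) was left out. *Pcsk1n* was at 7.20, 4.19 and 4.89 CPM in WT and at 1.60, 3.76 and 4.12 CPM in *MiR-29ab1-/-* mice, again without overlap. Its log2 fold change of -0.77 (SE 0.37, 95% interval -1.61 to 0.065) did not pass by edgeR (unadjusted p 0.0665, adjusted p = 0.668) and passed by DESeq2 before adjustment (p 0.0445). It was -0.46 without *MiR-29ab1-/-* mouse 1 (edgeR unadjusted p 0.166), -0.52 without WT mouse 1 (0.231) and -1.02 without *MiR-29ab1-/-* mouse 3 (0.0385). In TMM-scaled CPM, *Chga* and *Pcsk1n* were the 2 genes lower without overlap after DSS, where 6.28% of all genes tested were.

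*Cpe* was the only tested gene of the set with a positive log2 fold change after DSS. It was at 8.54, 6.11 and 5.98 CPM in WT and at 9.83, 10.4 and 6.91 CPM in *MiR-29ab1-/-* mice (0.39, SE 0.23, 95% interval -0.12 to 0.91, edgeR unadjusted p 0.119, adjusted p = 0.694). The genotypes overlapped through WT mouse 1 and *MiR-29ab1-/-* mouse 3, and an unadjusted p of 0.0414 or 0.0360 was reached without one or the other. *Scg5*, *Scg2* and *Scg3* had log2 fold changes of -0.43 (SE 0.46), -0.05 (SE 0.49) and -0.05 (SE 0.37), none past the threshold, and the 95% interval of each took in -0.89 to 0.62. *Vgf* (1 to 8 reads in WT and 3 to 10 in *MiR-29ab1-/-* mice) and *Pcsk2* were not tested.

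**Figure D3:**
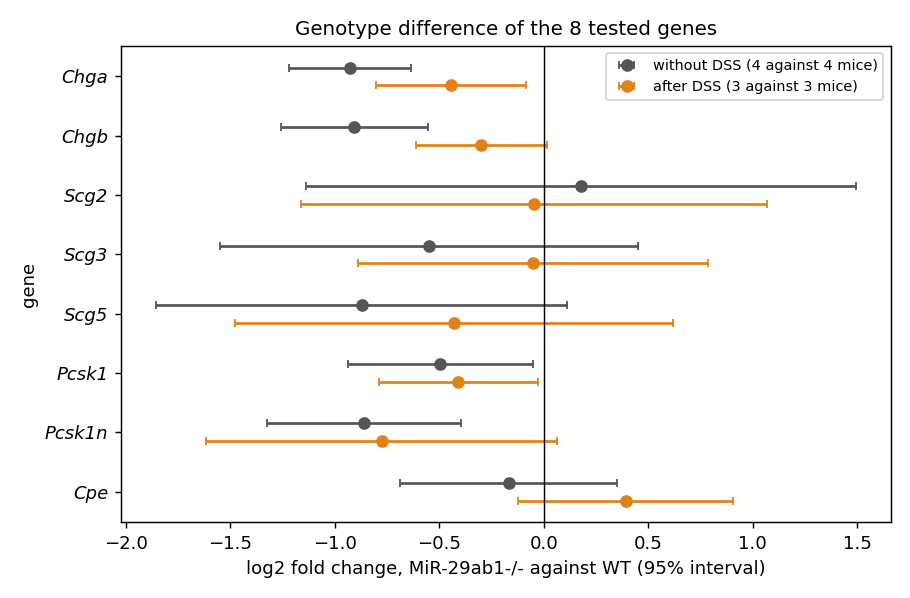
Log2 fold change of *MiR-29ab1-/-* against WT for the 8 tested genes without DSS (4 against 4 mice, the contrast by which the set was chosen) and after DSS (3 against 3 mice); bars are 95% intervals. After DSS the intervals of *Chga* and *Pcsk1* lie below 0 and those of the other 6 genes include it.

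Levels before and after DSS came from separate experiments with separate tables, so that DSS and experiment cannot be told apart, and are set side by side without a test. *Pcsk1* was at 4.67 to 8.24 CPM per kb in WT mice without DSS and at 2.56 to 3.79 after DSS, and at 4.11 to 6.26 and 2.15 to 2.64 in *MiR-29ab1-/-* mice, without overlap in either genotype. *Chgb* in WT was at 31.0 to 51.0 CPM per kb without DSS and at 23.1 to 26.0 after DSS, whereas in *MiR-29ab1-/-* mice it was at 16.9 to 23.6 and 16.1 to 23.9. *Chga* overlapped between the experiments in both genotypes. The level of *Pcsk1* per kb relative to that of its inhibitor gene *Pcsk1n* was 2.89 ± 0.744 in WT and 3.73 ± 1.06 in *MiR-29ab1-/-* mice without DSS (n = 4 each), and 1.33 ± 0.381 and 2.04 ± 1.37 after DSS (n = 3 each), with wide overlap between genotypes. That of *Chga* relative to *Cpe* was 7.80 ± 1.48 and 4.99 ± 1.65 without DSS, and 7.14 ± 0.633 and 4.17 ± 1.66 after DSS. This ratio ran from 5.74 to 9.23 in WT and from 3.17 to 7.00 in *MiR-29ab1-/-* mice without DSS, with overlap, and from 6.61 to 7.84 and from 2.91 to 6.05 after DSS, without overlap. It sets *Chga* against *Cpe*, the only tested gene of the set with a positive log2 fold change after DSS. The ratios of *Chgb* to *Chga* (1.20 to 1.42 in WT, 1.27 to 1.70 in *MiR-29ab1-/-* mice) and of *Chga* to *Pcsk1* (4.74 to 7.02 and 4.17 to 6.89) overlapped after DSS. None of these ratios was tested.

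Other genes of the granule pathway and of enteroendocrine cells were counted from lists that leave out the 10 genes. Of 52 genes in 4 lists, 46 were tested without DSS, in the same mice whose levels chose the set, so that these counts are not independent of that choice. At an unadjusted p under 0.05 by edgeR, 7 were lower and 1 was higher in *MiR-29ab1-/-* mice, beside 1.58% and 2.09% of all genes tested. After adjustment the smallest p among them was 0.779. The median log2 fold change was -0.38, and 34 of 46 were negative.

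Among 17 tested genes of the granule machinery, 4 were lower and none was higher without DSS, and each of the 4 had no overlap between genotypes. Of all genes tested, 0.92% were lower without overlap. *Rab3c*, a small GTPase of secretory vesicles, was at 1.42 ± 0.198 CPM in WT and 0.470 ± 0.166 CPM in *MiR-29ab1-/-* mice (log2 fold change -1.57, SE 0.35, unadjusted p 0.000964). After DSS it lay the other way, at 0.251 to 0.335 CPM in WT and 0.412 to 1.11 CPM in *MiR-29ab1-/-* mice without overlap, and had too few reads to be tested. The share of all genes that were higher without overlap after DSS was not counted. *Cadps*, which primes dense-core granules for release, was at 1.24 ± 0.247 and 0.558 ± 0.0744 CPM (-1.14, SE 0.32). *Ptprn*, encoding the granule membrane protein IA-2, was at 2.45 ± 0.354 and 1.49 ± 0.201 CPM (-0.71, SE 0.25), and *Syp*, encoding synaptophysin, was at 1.61 ± 0.478 and 0.845 ± 0.179 CPM (-0.92, SE 0.33). These 4 genes were faint, whereas the more abundant genes of the list, such as *Rab3d*, *Syt7* and *Pam*, had log2 fold changes of 0.14, 0.05 and -0.07, and the list median was -0.067. Among 10 tested peptide hormones 9 were negative and 1 was called lower, *Gcg*, the proglucagon gene (36.8 ± 2.84 against 26.9 ± 6.83 CPM, -0.45, SE 0.17, unadjusted p 0.0221). *Pyy* had a log2 fold change of -0.58 (SE 0.27, unadjusted p 0.0632).

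Of 15 tested transcription factors of the enteroendocrine lineage, *Myt1* was lower (-1.06, SE 0.43) and *St18* higher (0.62, SE 0.26) without DSS, and 10 were negative with a median of -0.61. All 6 tested enterochromaffin genes were negative, with a median of -0.60, and *Tph1*, the rate-limiting enzyme of serotonin synthesis in the gut, passed the threshold (-0.63, SE 0.28, unadjusted p 0.0485). *Fev* (-0.71) and *Lmx1a* (-0.64) belong to both this list and the transcription factors, so that the medians of those lists are not independent. The enterochromaffin genes outside the transcription factor list ran from -0.63 to -0.097. By contrast, of 8 tested convertases and carboxypeptidases of other cells, such as *Furin* and *Cpd*, none passed without DSS by edgeR or by DESeq2 before adjustment, and the median was 0.071. After DSS, 7 of the 8 tested genes of that list were negative, with a median of -0.065.

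After DSS, 42 genes of the same 4 lists were tested, of which 3 were lower and none higher at an unadjusted p under 0.05 by edgeR, 7.14% against 3.25% of all genes tested, with no edgeR adjusted p under 0.646. DESeq2 also called 3 lower, and 1 higher, beside 488 lower and 692 higher of all 14908 genes. The list gene called higher was *Tac1*, encoding the precursor of substance P, at 20.9 ± 13.3 CPM in WT and 77.6 ± 52.1 CPM in *MiR-29ab1-/-* mice (edgeR log2 fold change 1.89, SE 0.85, unadjusted p 0.0809, DESeq2 p 0.0239). *Scgn*, a calcium sensor of endocrine cells, was lower (-1.35, SE 0.54, unadjusted p 0.0345), as were *Pyy* (62.3 ± 8.25 against 41.3 ± 5.68 CPM, -0.59, SE 0.14, unadjusted p 0.00175, DESeq2 adjusted p = 0.0641) and *Ddc*, which makes serotonin from its precursor (-0.36, SE 0.15, unadjusted p 0.0382). The convertase gene *Pcsk6*, of the list of other cells, was higher (0.358 ± 0.105 against 0.898 ± 0.178 CPM, 1.30, SE 0.43, unadjusted p 0.0152).

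**Figure D4:**
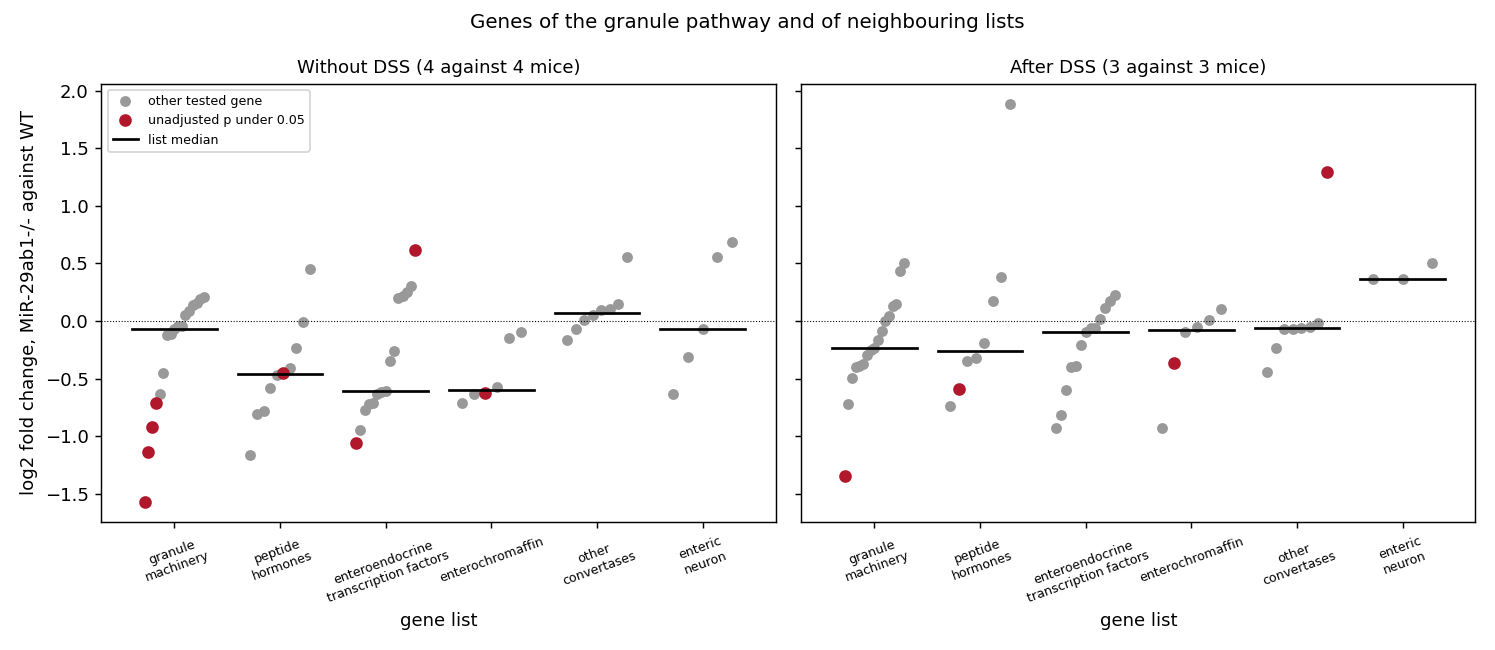
Log2 fold change of *MiR-29ab1-/-* against WT for each tested gene of 6 lists, without DSS and after DSS; every point is a gene, red points have an unadjusted p under 0.05 by edgeR and black lines are list medians. Without DSS the medians of hormones, transcription factors and enterochromaffin genes lie at -0.46, -0.61 and -0.60, and after DSS at -0.26, -0.096 and -0.075. *Fev* and *Lmx1a* are drawn under both transcription factors and enterochromaffin genes.

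Markers of neurons were counted because neurons also make granins. Of 16 neuronal markers, 5 were tested without DSS and 3 after DSS, and none was called by edgeR or DESeq2 before adjustment. *Vip*, a neuropeptide gene of enteric neurons, and the glial gene *Sox10* had 0 reads in all 14 mice. The summed level of the neuronal list was 7.97 to 9.21 CPM in WT and 8.86 to 10.47 CPM in *MiR-29ab1-/-* mice without DSS, and 6.40 to 7.69 and 5.70 to 10.3 CPM after DSS. *Snap25* belongs to both the neuronal and the granule list. Of 6 fibroblast markers, 4 were tested in each experiment. None was called without DSS by either tool, and *Col3a1* was higher after DSS (1.24, SE 0.31, unadjusted p 0.00365, edgeR adjusted p = 0.646, DESeq2 adjusted p = 0.0223). No immune marker was called in either experiment by edgeR or DESeq2, with summed levels of 34.2 to 108 CPM in WT and 39.3 to 146 CPM in *MiR-29ab1-/-* mice without DSS, and 25.5 to 53.4 and 35.3 to 81.7 CPM after DSS. All 4 tested immune markers had a positive log2 fold change after DSS (median 0.67), and *Itgam*, of myeloid cells, did not overlap, at 2.05 to 2.26 CPM in WT and 2.68 to 3.66 CPM in *MiR-29ab1-/-* mice. In the lower direction 6.28% of all genes tested after DSS did not overlap, and the share in the higher direction was not counted. All 7 goblet cell markers were negative after DSS (median -0.20), and none was called by edgeR or DESeq2. The part of these cells in the granin values was not tested.

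Variation among mice of the same group was compared after removing the mean of each of the 4 groups from log2 CPM, in 14 mice, which share depth and library preparation within an experiment. *Chga* varied most closely with *Pcsk1n* among the 8 tested genes (Pearson's r 0.79, Spearman's rho 0.83), then with *Scg5* (0.69, 0.62) and *Chgb* (0.56, 0.52), and little with *Pcsk1* (0.26, 0.30) or *Cpe* (0.056, 0.068). Without the 2 mice farthest from the median of *Chga*, r was 0.70 for *Pcsk1n*, 0.41 for *Scg5* and 0.22 for *Chgb*. Leaving out the mice most extreme in *Chga* narrows its range and can itself lower r, so that nothing is read from these lower values. Over all 14245 genes tested in both tables, the 10 with the highest r to *Chga* were *Btbd6* (0.95), *Gab1*, *Rnf167*, *Cfap20*, *Acadm*, *Sord*, *Urod*, *Hadh*, *Tmem41a* and *Dnajc28* (0.89), and *Pcsk1n* stood at rank 116. None of these 10 belongs to the granule or enteroendocrine lists. With 11.7% of all genes above an r of 0.5, these values describe the mice and no more.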

How the data were processed

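Total RNA was extracted with TRIzol and libraries were made with a directional kit. The authors deposited raw counts per gene for each experiment, and the labels' processing notes name HISAT2 and DESeq2. The build, annotation, counter and use of strand are not given in the sources used here. Positions of the 10 genes are identical in GENCODE vM21 on GRCm38. The authors also deposited FPKM values, used here only as an alternative without DSS. The 6 FPKM columns after DSS were not used, because their names matched no mouse. Columns with fold changes and p values of the authors' own comparison were not used.

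Each table was tested alone with edgeR 4.0.16 in R 4.3.3 (filterByExpr at its defaults of 10 and 15 reads, TMM scaling, robust glmQLFit and glmQLFTest) with genotype as the only term, and p values were adjusted by Benjamini-Hochberg over all genes of the table. CPM are TMM-scaled, and log2 values for co-variation have a prior count of 2. Standard errors and 95% intervals come from the quasi-likelihood F statistic. Single mice of the groups after DSS are numbered as in the table's columns, which differ from the labels' numbers. Replicates are the separately numbered mice of the labels. The study states that a WT and a *MiR-29ab1-/-* sample were left out of its analysis and does not name them. No 2 libraries were alike within counting noise (Spearman's rho 0.919 to 0.929 over genes within a table). The scripts were tested on simulated counts.

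The alternatives were DESeq2 1.42.0, RLE scaling, no filter on low counts, all 14 mice in 1 model, leaving out each mouse, the replicate number as a block, CPM by total counts and FPKM. The genes and the lists were chosen with earlier results of these data known. Named genes are the 10 genes, up to 4 genes of a list with the smallest unadjusted p, the 10 genes closest to *Chga* and the check transcript *Lncpint*; *Rab3d*, *Syt7* and *Pam* without DSS, *Rab3c* after DSS, and *Vip* and *Sox10* were chosen after their values were seen.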

Additional observations from a re-analysis of the deposited data

Results flagged for a closer look

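Among 18 groups of 4 mice examined, 2 held a mouse far from the other 3, where chance flags about 1 group in 20. *Pcsk1* in *MiR-29ab1-/-* mouse 3 without DSS was at 35.1 CPM and the other 3 mice of its group at 23.0 to 24.5 CPM. *Vgf* in *MiR-29ab1-/-* mouse 1 without DSS was at 0.203 CPM, from 3 reads, and the other 3 mice were at 0.358 to 0.381 CPM.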

How the results depend on the processing

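Without DSS, all 120 alternative values of the log2 fold changes of the 8 genes moved by less than the spread between mice, and 118 kept their sign; both exceptions were *Scg2*, at -0.12 without WT mouse 1 and -0.39 without *MiR-29ab1-/-* mouse 1. After DSS, 82 of 88 values kept their sign. With RLE scaling, DESeq2 or 14 mice in 1 model, 2 or 3 of the genes passed an unadjusted p of 0.05, and with no filter on low counts 4 passed (*Chga*, *Chgb*, *Pcsk1* and *Pcsk1n*). Of all genes tested, 7.27%, 7.92% and 7.06% passed in those settings, and 6.69% with no filter. Leaving out each mouse gave 1 to 3 genes past that p, of which 0 to 2 were lower: none without WT mouse 1, where *Cpe* passed as higher, *Chga* without WT mouse 3, *Pcsk1* without *MiR-29ab1-/-* mouse 1, and 2 genes otherwise, with *Cpe* again higher without *MiR-29ab1-/-* mouse 3. The share of all genes past that p ran from 3.16% without *MiR-29ab1-/-* mouse 2 to 16.6% without *MiR-29ab1-/-* mouse 3. The most genes of the set, 3, passed in the latter setting. *Pcsk1* also lost its call with 14 mice in 1 model (unadjusted p 0.0765). The log2 fold change of *Scg2* after DSS ran from -0.46 to 0.24 over the mice left out, that of *Scg3* from -0.30 to 0.10 and that of *Scg5* from -0.91 (without *MiR-29ab1-/-* mouse 2) to -0.098 (without *MiR-29ab1-/-* mouse 1). Genes of the 4 lists called lower numbered 4 to 10 over the mice left out without DSS, with 4 without WT mouse 1 or WT mouse 3, against 7. Of all genes, 214 of 15617 and 170 of 15617 were lower without these WT mice, and 223 of 15739 without *MiR-29ab1-/-* mouse 2, where the lists gave 10. After DSS they numbered 1 (without *MiR-29ab1-/-* mouse 1) to 5 (without *MiR-29ab1-/-* mouse 3), against 3, and 6 with no filter. Of all genes, 250 of 15306, 1242 of 15283 and 782 of 27172 were lower in those settings. The cause was not tested.

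Samples without DSS that share a replicate number did not deviate together (correlations -0.037, 0.169, -0.196 and -0.144, and 2 of 8 samples closest to their own number). With the replicate number as a block, 7 list genes were lower, beside 222 of all 16529 genes, and the log2 fold change of *Chga* was -0.92. After DSS no block was fitted, because the columns are numbered 1 to 3 and carry none of the labels' numbers. Depth limited *Scg2*, *Scg3*, *Scg5*, *Vgf* and *Pcsk2*, at 44 reads or fewer in every mouse.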
